A study of Mus musculus with 8 samples.

Results

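Horizontal cells (HCs) are inhibitory interneurons of the outer retina that collect input from photoreceptors and return feedback to them. The 6 transcription factors Lhx1, Onecut1, Onecut2, Onecut3, Prox1 and Sall3 are associated with HCs. They were followed in whole retinas of control mice and of mice with reduced Rbfox2. They were chosen by name as HC transcription factors, and the HC marker calbindin (Calb1) was left outside the set because it is not a transcription factor. All 6 were among the 17500 genes of the deposited table, and all 6 passed the low-count filter together with 16797 genes in total.

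RNA was sequenced from whole retinas of 4 Rbfox2-/- and 4 control mice, 1 library per mouse, all on the C57BL/6J background and 6 months old. The Rbfox2-/- mice carried 2 floxed alleles (Rbfox2 fl/fl) and 1 copy of a transgene for a tamoxifen-activated Cre, which acts in many cell types and not in HCs alone. Recombination was induced in adulthood, and 4 months of Rbfox2 loss preceded RNA collection, so retinas had developed with Rbfox2. Controls were heterozygous Rbfox2 fl/+ mice and thus also carried a floxed allele. The GEO treatment text is the same for all libraries, while the study's methods describe tamoxifen for the fl/fl animals and do not say which agent the sequenced controls received. The comparison gives RNA differences between the groups in whole retina. It does not assign them to the cells that make Rbfox2, among them HCs. The groups also differed in the number of floxed alleles. Mice are called control 1 to 4 and Rbfox2-/- 1 to 4, in an order that carries no meaning.

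HC fate is set in retinal progenitors and early postmitotic cells by a cascade of transcription factors, several of which stay on in the adult cell. Onecut1 and Onecut2 (cut-homeodomain proteins) act early in HC genesis, Prox1 (a divergent homeodomain protein) promotes HC formation, and Lhx1 (a LIM-homeodomain protein) guides HCs to their layer. Sall3 (a zinc-finger protein) acts in HC maturation and also in cones. Onecut3 is a further member of the Onecut family. Most of these genes are not particular to HCs. Onecut genes are also active in retinal ganglion cells (RGCs), Prox1 in AII amacrine cells (ACs), bipolar cells, Müller glia, lens and lymphatic endothelium, and Sall3 in cones. A whole-retina library sums all these cells, so fewer cells of a type and less RNA per cell cannot be told apart.

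Rbfox proteins bind RNA at the short element (U)GCAUG, in which the first U is optional. Its hexamer form is written TGCATG in cDNA letters with T for U. The 6 mature transcripts were therefore searched on the sense strand for TGCATG. The shorter form without the leading T was not searched. Transcripts were those GENCODE M21 (GRCm38) pairs with the RefSeq accession of each row. One site was found in each of Lhx1, Onecut1, Onecut3, Prox1 and Sall3, and 2 in Onecut2. The windows below show the site with its 12 neighbours on each side, for 4 of the genes, to show the letters and region that Rbfox proteins could meet, and the capitals mark the hexamer.
Lhx1, coding sequence: aactgcttcaccTGCATGatgtgtaacaag
Onecut1, 3′ UTR: agtctgacaccaTGCATGtgggacccataa
Onecut3, coding sequence: gcccgtcgccgcTGCATGaaccgctgggct
Prox1, 3′ UTR: acctcctacacgTGCATGctaactatcgct

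In GRCm38 the Lhx1 hexamer lay at chr11:84522183-84522188 on the minus strand, the Onecut1 hexamer at chr9:74890602-74890607 on the plus strand, the Onecut3 hexamer at chr10:80514069-80514074 on the plus strand and the Prox1 hexamer at chr1:190121979-190121984 on the minus strand. The sites of Onecut2 and Sall3 were in their 3′ UTRs. The hexamer is common in transcripts of such lengths. Among the longest protein-coding transcripts of all genes within 10% of the Lhx1 length, 65.8% held it, against 66.9% for Onecut1, 74% for Onecut3, 87.9% for Prox1, 85.9% for Sall3 and 98.4% for Onecut2. Introns, where Rbfox proteins often bind, were not searched. A match of these letters is a description of the transcript and not a site of binding.

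The genes lie on 5 chromosomes, Onecut2 and Sall3 sharing chromosome 18. In GRCm38, Lhx1 spans 84518284 to 84525535 of chromosome 11, Onecut1 74861921 to 74891781 of chromosome 9, Onecut2 64340020 to 64400987 of chromosome 18, Onecut3 80494835 to 80517276 of chromosome 10, Prox1 190118035 to 190170714 of chromosome 1 and Sall3 80966376 to 80986771 of chromosome 18. Prox1 is overlapped on the opposite strand by the antisense genes Prox1os and Gm28172, neither of which has a row of its own. Whether counting used strand is not given in the sources used here, so reads of Prox1 and of its antisense partners cannot be told apart. Onecut1 and Onecut3 are each overlapped on their own strand by a noncoding gene without a row (Gm20649 and 2610034O05Rik).

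Total counts were 160630226 to 211283591 per library. The lowest count of any of the 6 factors in any library was 857 (Onecut1) and the highest 33123 (Prox1), and the counting error of the lowest Onecut1 library was 3.42% of its value, and that of the lowest Prox1 library 0.669%. For Onecut1 this was as large as the spread between mice (CV of FPKM 2.32% in controls and 3.02% in Rbfox2-/- retinas), and for the other 5 factors the counting error of the lowest library was below the CV of either group. Levels are given below as CPM, the counts scaled to a common library size after TMM normalization, which compares 1 gene between libraries and not genes with each other. Rbfox2 itself was 144, 150, 157 and 148 CPM in controls and 53.9, 58.9, 53.6 and 59.4 CPM in Rbfox2-/- retinas, a log2 fold change of -1.41 (SE 0.0456; edgeR quasi-likelihood test, FDR = 5.51e-07). Every library of the Rbfox2-/- group, which the deposited labels call Rbfox2 KD, lay below every control. The libraries Rbfox2-/- 2 and 3 stood apart on the first principal component (40.5% of the variance) and held 277506 and 275967 Xist counts, against 312 to 426 in the other 6. Xist is an RNA of female cells, and the labels give no sex. By Xist, Rbfox2-/- 2 and 3 read as female and the other 6 libraries, all controls among them, as male. Sex and genotype were thus partly confounded. Fits without Rbfox2-/- 2 and 3 compare libraries of like Xist level.

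Across all genes, 11 of 16797 (0.0655%) passed an FDR of 0.05 in the edgeR quasi-likelihood test, and none of the 6 HC factors did. At an unadjusted p under 0.05, 1 of the 6 (Lhx1) was called, against 13.3% of all genes. The 4 control and 4 Rbfox2-/- values did not overlap for 1 of the 6 (Onecut1), against 7.03% of all genes. Of the 6 factors 3 had a positive and 3 a negative log2 fold change, with a median of -0.0058, beside a median of 0.0016 over all genes. DESeq2, limma-voom and the edgeR likelihood ratio test also called none of the 6 at an FDR of 0.05. Over all 16797 genes they called 460, 11 and 164 at that FDR. At an unadjusted p under 0.05 they called 2, 1 and 0 of the 6. The shares of all genes that these 3 methods call at that p were not computed.

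**Figure D1:**
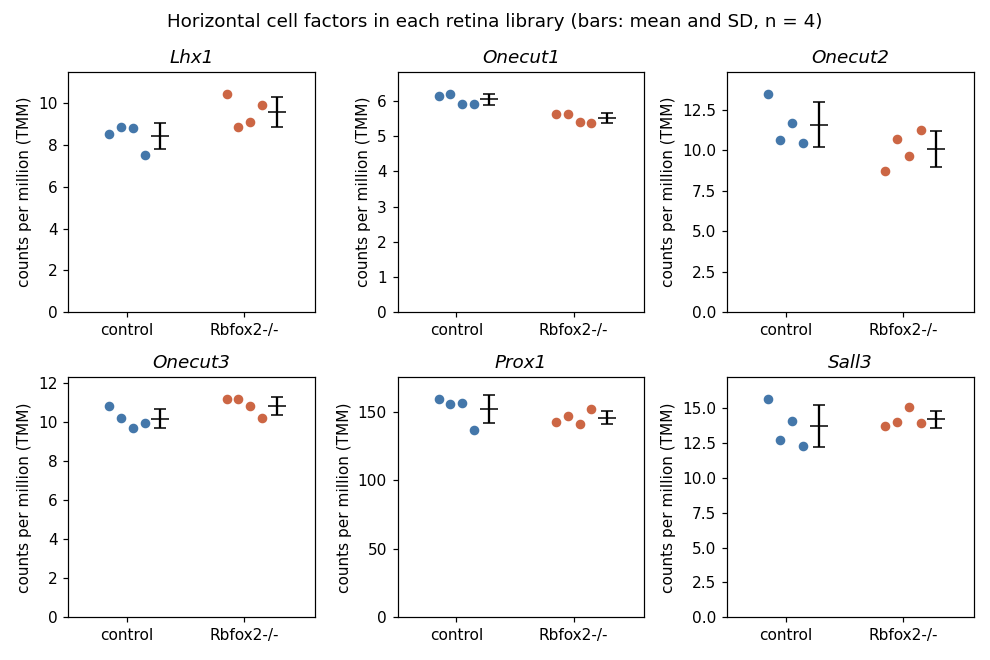
TMM-normalized CPM of the 6 HC factors in each library, with 1 point per mouse, controls on the left and Rbfox2-/- on the right of each panel, and the mean and SD (n = 4) as bars. Axes start at 0. The groups overlapped in 5 panels, and in the Onecut1 panel every Rbfox2-/- value lay below every control value.

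Lhx1 had the largest positive estimate of the 6. It was 8.53, 8.87, 8.82 and 7.53 CPM in controls and 10.4, 8.86, 9.11 and 9.91 CPM in Rbfox2-/- retinas (8.44 ± 0.627 against 9.58 ± 0.732, SD, n = 4). Of the 4 Rbfox2-/- libraries 3 exceeded every control, and Rbfox2-/- 2 lay between the 2 highest controls. The log2 fold change was 0.18 (SE 0.0764; unadjusted p = 0.0376, FDR = 0.353, edgeR), that is 13.5% with a 95% interval of 0.894% to 27.7%. The unadjusted p rose to 0.0567 without control 1, to 0.102 without control 4, to 0.113 without Rbfox2-/- 1 and to 0.0783 without Rbfox2-/- 4. The unadjusted p fell to 0.0235 without Rbfox2-/- 2 and to 0.0228 with 1 surrogate variable in the fit (edgeR). Without Rbfox2-/- 2 and 3 together the log2 fold change was 0.27 (unadjusted p = 0.0158, FDR = 0.715, edgeR). Lhx1os, a noncoding gene that starts 125 bases from Lhx1 on the opposite strand and is counted in its own row, was 2.22 ± 0.202 CPM in controls and 2.09 ± 0.0883 CPM in Rbfox2-/- retinas (SD, n = 4; FDR = 0.746, edgeR).

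The estimates of the 3 Onecut genes differed in sign, and none passed the test. Onecut1 was 6.15, 6.21, 5.92 and 5.91 CPM in controls and 5.63, 5.64, 5.40 and 5.39 CPM in Rbfox2-/- retinas (6.05 ± 0.157 against 5.51 ± 0.139, SD, n = 4). The gap between the groups was small, and the spread within each group was the smallest in CPM among the 6 genes. The log2 fold change was -0.13 (SE 0.0604; unadjusted p = 0.0527, FDR = 0.382, edgeR), that is -8.80% with a 95% interval of -16.9% to 0.13%.

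Onecut2 was 13.5, 10.6, 11.7 and 10.5 CPM in controls and 8.70, 10.7, 9.64 and 11.2 CPM in Rbfox2-/- retinas (11.6 ± 1.39 against 10.1 ± 1.12, SD, n = 4). Control 1 was the highest and Rbfox2-/- 1 the lowest library, and the other 6 values were interleaved apart from Rbfox2-/- 3. The log2 fold change was -0.20 (SE 0.101; FDR = 0.424, edgeR), the largest negative estimate and the widest interval of the 6, from -25.6% to 1.76%. It was -0.12 without control 1 and -0.14 without Rbfox2-/- 1, and the unadjusted p, 0.0759 with all libraries, went to 0.0470 without control 4 (log2 fold change -0.24) and to 0.0347 without Rbfox2-/- 4 (-0.26; edgeR).

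Onecut3 was 10.8, 10.2, 9.68 and 9.94 CPM in controls and 11.2, 11.2, 10.8 and 10.2 CPM in Rbfox2-/- retinas (10.2 ± 0.487 against 10.8 ± 0.465, SD, n = 4). Of the Rbfox2-/- libraries 2 exceeded every control, and the other 2 lay among them. The log2 fold change was 0.09 (SE 0.0571; FDR = 0.523, edgeR), with an interval of -2.45% to 16.4%.

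Prox1 had the highest counts of the 6. It was 159, 156, 156 and 137 CPM in controls and 142, 147, 141 and 152 CPM in Rbfox2-/- retinas (151.9 ± 10.3 against 145.5 ± 4.95, SD, n = 4). Control 4 lay below all other libraries, while the other 3 controls lay above all 4 Rbfox2-/- libraries. The log2 fold change was -0.06 (SE 0.0497; FDR = 0.622, edgeR), with an interval of -11.3% to 3.46%, the narrowest of the 6. Without control 4 it was -0.11 (unadjusted p = 0.0132, FDR = 0.466, edgeR).

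Sall3 had the smallest estimate. It was 15.6, 12.7, 14.1 and 12.3 CPM in controls and 13.7, 14.0, 15.1 and 13.9 CPM in Rbfox2-/- retinas (13.7 ± 1.51 against 14.2 ± 0.618, SD, n = 4). All 4 Rbfox2-/- values lay within the range of the controls. The log2 fold change was 0.05 (SE 0.0770; FDR = 0.821, edgeR), with an interval of -8.08% to 16.6%, and its sign turned to -0.05 when 1 surrogate variable was added to the fit. Left-out libraries moved it to 0.12 (control 1), 0.0169 (control 2), 0.00211 (control 4) and 0.0185 (Rbfox2-/- 3), and without Rbfox2-/- 2 and 3 together it was 0.00916.

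Levels of different genes were compared only per transcript length, with the deposited FPKM (fragments per kilobase of transcript, scaled for library size). In controls the order was Prox1 (36.9 ± 2.23 FPKM, SD, n = 4), Onecut1 (3.34 ± 0.0773), Lhx1 (3.09 ± 0.223), Onecut3 (2.18 ± 0.0792), Sall3 (1.997 ± 0.192) and Onecut2 (0.867 ± 0.0912). Prox1 stood at percentile 88.6 of the genes in the table, and the other 5 stood between percentiles 24.6 and 39.1. Onecut3 and Sall3 overlapped in range and were not separated. Onecut1 and Lhx1 were nearly level in controls, with 3.28 to 3.45 and 2.78 to 3.27 FPKM, and changed places in Rbfox2-/- retinas, where Lhx1 was 3.47 ± 0.296 and Onecut1 3.01 ± 0.0910 FPKM (SD, n = 4), an exchange that was not tested. The order also depended on the length assigned to each gene. The deposited FPKM of Onecut1 imply a length of 1823 bases and those of Prox1 4137 bases, while the matched GENCODE transcripts have 3957 and 7913. With CPM per kilobase of those transcripts in place of FPKM, Onecut1 moved from place 2 to place 5, Lhx1, Onecut3 and Sall3 each moved up by 1, and Prox1 stayed first and Onecut2 last. On that scale Lhx1 (2.19) lay above Onecut1 (1.53) in controls already, so the exchange was seen only with the deposited FPKM.

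**Figure D2:**
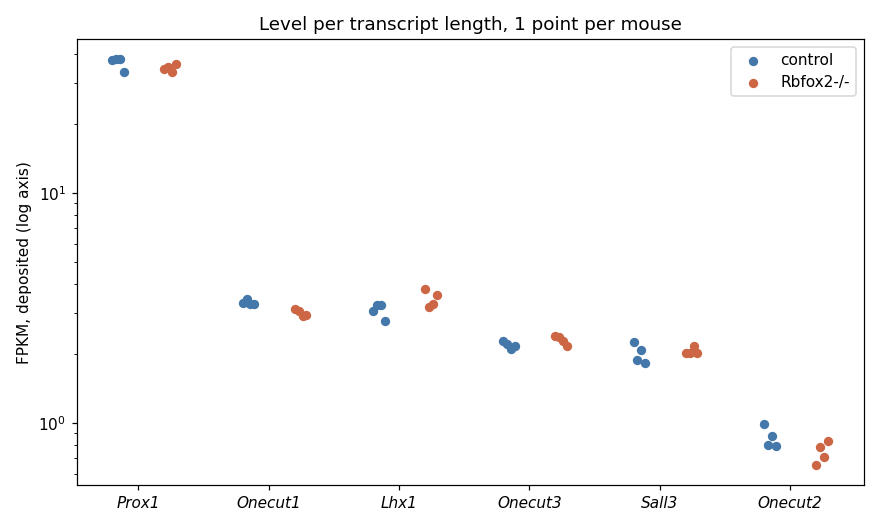
Deposited FPKM on a log axis for the 6 factors, ordered by the control mean, with 1 point per mouse. Prox1 lay near 36.9 FPKM in controls and the other 5 between 0.867 and 3.34, and the points of Onecut1 and Lhx1 changed places between the groups. Per kilobase of the GENCODE transcripts, Lhx1 lay above Onecut1 in controls already.

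The rest of the HC programme was read from lists of genes by role. Among 9 HC products outside transcription, 1 passed an FDR of 0.05. Calb1, the calcium buffer calbindin, fell by 0.40 on the log2 scale, from 76.2 ± 1.84 CPM to 57.9 ± 1.86 CPM (SD, n = 4; SE 0.0357, FDR = 0.00341, edgeR), but it is also made by ACs and RGCs, and without Rbfox2-/- 2 and 3 its log2 fold change was -0.43 and its FDR 0.0501. In sections of Rbfox2-/- retinas the paper describes calbindin immunostaining as apparently unaffected. That is protein in stained cells and not RNA of the whole retina. Megf11, a receptor that spaces HCs and starburst ACs, went from 42.7 ± 3.22 to 38.7 ± 0.702 CPM (SD, n = 4; log2 fold change -0.14, FDR = 0.317). The list of 9 held 2 genes with an unadjusted p under 0.05, both lower, against 13.3% of all genes. Its median log2 fold change was -0.02. The 95% interval of the Calb1 change ran from -28.2% to -19.8%, below the intervals of 5 of the 6 HC factors, while that of Onecut2 reached -25.6%. A test of Calb1 against each factor was not made. The summed CPM of these 9 genes was 1015 to 1026 in controls and 973 to 1047 in Rbfox2-/- retinas. Other cells add to this sum. The transporter gene Slc32a1, at 155 CPM in controls and 154 CPM in Rbfox2-/- retinas, is also active in ACs. The sum is therefore not a measure of HCs alone.

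**Figure D3:**
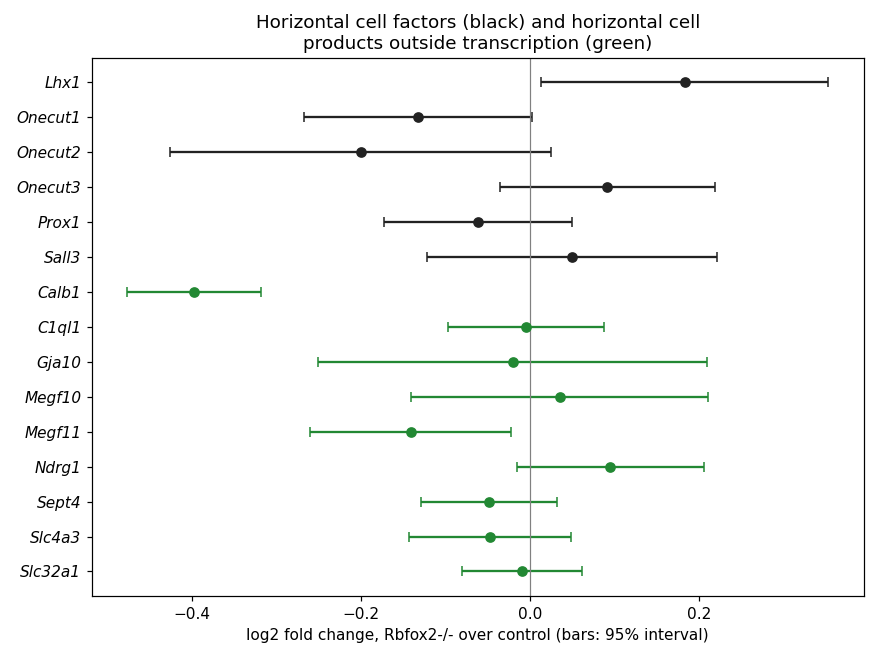
Log2 fold change of Rbfox2-/- over control with 95% intervals (edgeR) for the 6 HC factors (black) and 9 HC products outside transcription (green). The 6 factors lay between -0.20 and 0.18, and Calb1 lay at -0.40. The intervals of Lhx1, Megf11 and Calb1 were clear of 0.

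Of 8 further factors of HC and AC specification, 7 were tested (Foxn4 did not pass the filter) and none reached an FDR of 0.05 in the edgeR test. Ptf1a, the factor that sets HC and AC fate in progenitors, was nearly silent at 0.0773 ± 0.0201 CPM in controls and 0.157 ± 0.0810 CPM in Rbfox2-/- retinas (SD, n = 4; log2 fold change 1.01, FDR = 0.342). It had the only unadjusted p under 0.05 of the 7, against 13.3% of all genes. DESeq2 also called none of the 7 at an FDR of 0.05. Tfap2a, which acts beside Tfap2b in postmitotic HCs and ACs, was 58.1 ± 3.72 CPM in controls and 54.97 ± 1.86 CPM in Rbfox2-/- retinas (SD, n = 4; log2 fold change -0.08, FDR = 0.523). The median of the list was -0.04.

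LIM-homeodomain factors such as Lhx1 work in complexes with Ldb proteins, which Ssbp proteins stabilize and Lmo proteins compete for. None of 10 such cofactors passed an FDR of 0.05 in the edgeR quasi-likelihood test. An unadjusted p under 0.05 was found for 5, 2 higher and 3 lower, against 13.3% of all genes. DESeq2 called 2 of the 10 at an FDR of 0.05, and 460 of 16797 genes in all. Ssbp4 went from 258.7 ± 11.9 to 298.5 ± 15.7 CPM (SD, n = 4; log2 fold change 0.21, FDR = 0.172) and Lmo4 from 47.8 ± 2.42 to 42.9 ± 0.573 CPM (SD, n = 4; log2 fold change -0.16, FDR = 0.216), both without overlap of the groups. Within the list of 10, the groups did not overlap for 2 higher and 2 lower genes, against 7.03% of all genes. The median log2 fold change of the 10 was -0.03.

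Of 19 relatives of the 6 factors, 15 were tested, and again none passed an FDR of 0.05 in the edgeR quasi-likelihood test. An unadjusted p under 0.05 was found for 4 of the 15, against 13.3% of all genes. DESeq2 called 2 at an FDR of 0.05. The groups did not overlap for 2 of the 15, against 7.03% of all genes. These 2 were picked here after their values were seen. Isl1, a LIM-homeodomain factor of bipolar, ganglion and starburst cells, went from 67.7 ± 1.90 to 59.5 ± 1.95 CPM (SD, n = 4; FDR = 0.116), and Cux2, a cut-homeodomain relative of the Onecut genes, from 76.99 ± 3.04 to 68.5 ± 2.67 CPM (SD, n = 4; FDR = 0.181).

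Markers of the other cells that make these factors were read beside them. No gene of the RGC, AC, bipolar, Müller glia, cone, lens or lymphatic endothelium lists passed an FDR of 0.05 in the edgeR quasi-likelihood test. At an unadjusted p under 0.05 there were 0, 0, 3, 2, 5, 1 and 3 of their tested genes, against 13.3% of all genes. At an FDR of 0.05 DESeq2 called 0, 0, 1, 1, 2, 0 and 0, and 460 of 16797 genes in all. The edgeR likelihood ratio test called 1 cone gene, and 164 genes in all. For the Onecut genes, the summed CPM of 10 RGC markers was 722 to 1173 in controls and 910 to 1204 in Rbfox2-/- retinas, with the lowest value in control 1, the library with the highest Onecut2. For Prox1, the sums of 10 AC markers were 954 to 1046 and 967 to 1005 CPM, those of 10 bipolar markers 1947 to 2083 and 1894 to 1973 CPM, and those of 10 Müller glia markers 6707 to 7370 and 6053 to 6776 CPM, in controls and Rbfox2-/- retinas in that order. The AC list mixes genes of ACs that use GABA, glycine or acetylcholine. It is not a list of AII cells, so its sum does not show their level. Lens markers summed to 2.40 to 4.32 CPM in controls and 1.71 to 5.62 CPM in Rbfox2-/- retinas. Of these, Mip, Lim2 and Gja3 did not pass the filter or were not in the table. The lymphatic endothelium list summed to 413 to 482 and 303 to 464 CPM, most of it Reln, which retinal neurons also make. Other genes of that list are also made by blood vessel endothelium, so it is not a readout of lymphatic cells alone. For Sall3, 9 of 10 cone markers had a positive log2 fold change (median 0.13, beside 0.0016 over all genes). Their sum was 1382 to 1448 CPM in controls and 1480 to 1672 CPM in Rbfox2-/- retinas, without overlap. No list of rod genes was read beside it, so the change is not shown to be particular to cones. Markers of pigment epithelium and ciliary body, tissues that can cling to a dissected retina, summed to 260 to 428 and 228 to 320 CPM, with 9 of 10 genes negative. Without Rbfox2-/- 2 and 3 the median log2 fold change went from -0.06 to 0.02 for the Müller glia list, from -0.69 to -0.11 for the pigment epithelium and ciliary body list, from 0.05 to -0.01 for the RGC list, from -0.08 to -0.01 for the lens list and from -0.24 to -0.16 for the lymphatic endothelium list. The part of any of these cells in the values of the 6 factors was not tested.

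**Figure D4:**
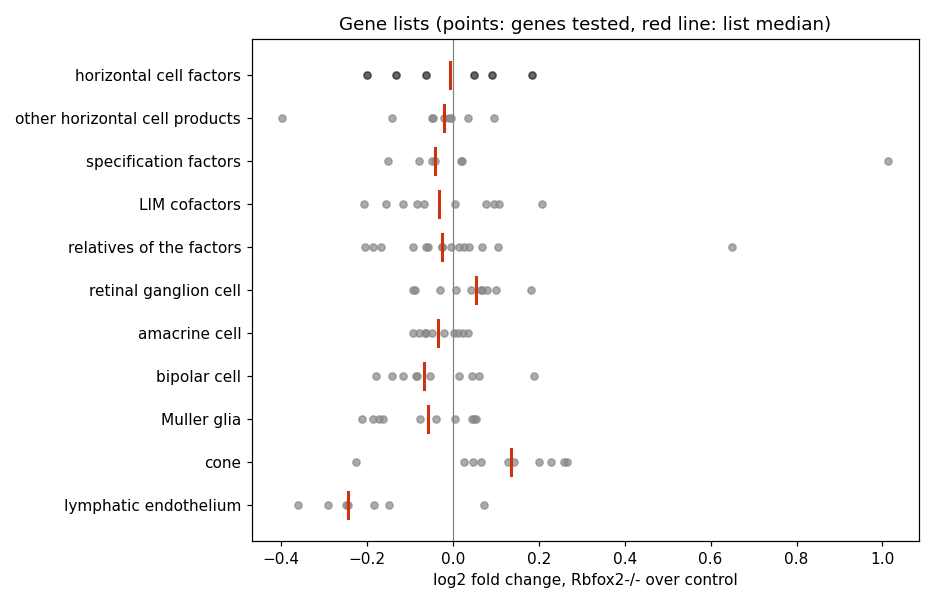
Log2 fold change of Rbfox2-/- over control for the genes tested in 11 lists (points), with the list median as a red line. The 6 HC factors spread from -0.20 to 0.18 around -0.0058, and the cone markers had a median of 0.13. The lymphatic endothelium list also holds genes of blood vessels and Reln, which neurons make. The lens, pigment epithelium and ciliary body lists are not drawn.

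Among themselves the 6 factors did not vary together in a way that passed a test. Of 15 pairs over the 8 libraries, Onecut2 and Prox1 had the lowest p (log2 CPM, Pearson r = 0.742, exact permutation p = 0.0285, adjusted 0.427; Spearman rho = 0.833, p = 0.0154, adjusted 0.231), and r was 0.698 without control 1 and Rbfox2-/- 1, the libraries farthest from the Onecut2 median. Within a group, 4 libraries are too few for a correlation.

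The genes whose log2 CPM followed each factor most closely over the 8 libraries, among 13755 genes with a mean of at least 1 CPM, were Nthl1 and Ttyh2 for Lhx1 (Pearson r = 0.971 and 0.953), Baiap2 and Elfn2 for Onecut1 (0.965 and 0.956), and Nrxn3 and Grin2b for Onecut2 (0.977 and 0.975). For Onecut3 they were Npepps and Usp47 (0.973 and 0.969), for Prox1 Asap2 and Zfp462 (0.984 and 0.942), and for Sall3 Cpsf6 and Phlpp2 (0.976 and 0.967). These are descriptions over 8 points that share groups and libraries, and with Spearman's rho 3 of the 12 were among the nearest 2, ties included.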

How the data were processed

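Per the study's methods, the authors mapped paired poly(A) reads to mm10 (STAR), discarded those without a unique position, assigned the rest to genes (HTSeq; RefSeq and Ensembl annotations are both named), and deposited raw counts and FPKM values in 1 table. Every row had at least 5 counts in at least 4 libraries. The table's normalized counts, fold changes and p-values, from the authors' own edgeR comparison, were not used. Here the deposited counts were filtered (filterByExpr), TMM-normalized and tested over all genes with edgeR 4.0.16 (quasi-likelihood, R 4.3.3), with Benjamini-Hochberg FDR and no covariate. SDs are over mice, intervals are 95%, and correlations used log2 CPM with a prior count of 2. Alternatives used DESeq2 1.42.0, limma 3.58.1 and sva 3.50.0. Every 2 libraries differed by more than counting error. Replicate numbers follow accession order and pair no mice. FPKM served for levels between genes only.

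The 6 factors and all gene lists were chosen with earlier results of these data known. Named genes were the 6 factors, Rbfox2, the 2 genes nearest each factor by Pearson r among genes with a mean of at least 1 CPM, list genes with an FDR under 0.05, and the 2 lowest p of the HC product, specification and LIM cofactor lists. Xist marks the 2 libraries that stood apart. Other list genes named were picked after their values were seen, as the text says at each, or serve to show a level. Annotation and transcript sequences were GENCODE M21 (GRCm38), and all 6 symbols matched it. One gene that the HC product list first held was taken out of it and is not reported here.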

Additional observations from a re-analysis of the deposited data

Results flagged for a closer look

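Of 40 groups of 4 libraries examined (the 6 factors, Rbfox2 and 13 summed lists in each genotype), 3 held a library far from the others by Dixon's ratio, where chance gives about 1 in 20. Prox1 in controls gave 0.841, with control 4 at 137 CPM and the other 3 at 156 to 159 CPM. The summed RGC markers in controls gave 0.889, with control 1 at 722 CPM and the other 3 at 1123 to 1173 CPM. The summed lens markers in Rbfox2-/- retinas gave 0.844, with Rbfox2-/- 1 as the library apart.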

How the results depend on the processing

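The 6 factors kept their direction in all 18 refits, apart from Sall3 with 1 surrogate variable (-0.0453), and no factor reached an FDR of 0.05 in any of them. Rbfox2 stayed between -1.43 and -1.38. The count of all genes with an FDR under 0.05 (11) was 460 with DESeq2, 164 with the edgeR likelihood ratio test, 5 with 1 surrogate variable and 1 without Rbfox2-/- 2 and 3. It ranged from 5 to 35 with 1 library left out, the highest without control 1 and the lowest without control 3 or Rbfox2-/- 1, 2 or 4, with 19 without control 2 and 6 without control 4. The number of factors with an unadjusted p under 0.05 (1) was 2 with DESeq2 (Lhx1 and Onecut1), 0 with the likelihood ratio test, 2 with upper-quartile normalization (Lhx1 and Onecut1) and 0 to 2 with 1 library left out, with 0 without control 1 or Rbfox2-/- 1 and 2 without control 4 (Onecut2 and Prox1), while without Rbfox2-/- 4 the 1 factor was Onecut2 and not Lhx1. The causes were not tested. The order of levels per kilobase of GENCODE transcript was added after the data were seen and shared 2 of 6 places with the FPKM order. No paired analysis was possible because the labels give no replicate numbers that tie mice of the groups together. For Onecut1 the counting error of the lowest library was as large as the spread between mice.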
